A study of Mus musculus with 7 samples.

Results

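Translation initiation factors bring the messenger RNA, the initiator tRNA and the ribosomal subunits together at a start codon, and elongation factors then move the ribosome along the message. The genes described here are the 62 of 23038 rows of the deposited table whose symbol begins with Eif1, Eif2, Eif3, Eif4, Eif5, Eif6 or Eef, leaving out the eIF2 kinase genes (Eif2ak) and the Y-linked Eif2s3y. Smart-seq2, which amplifies whole cDNAs from very few cells, was used to measure transcripts of haematopoietic stem cells (HSCs) gated from C57BL/6 bone marrow as Lineage-, Sca1+, cKit+, CD150+ and CD48- cells, 150 per library. The mutant group held 4 libraries of Mx1-cre; Mettl3fl/fl mice, in which Cre, driven by the interferon-responsive Mx1 promoter, removes Mettl3, the catalytic subunit of the enzyme that places N6-methyladenosine (m6A) on mRNA. The control group held 3 libraries of Cre-negative littermates, so Cre itself is present in 1 group only, and the floxed alleles of the controls are not stated in the sources used here. Control and mutant animals alike were given pIpC, a synthetic double-stranded RNA that induces interferon, in 5 doses of 10 µg, and HSCs were sorted 10 days after the final dose. The Mx1 promoter is not restricted to HSCs, so deletion can also occur in other cells of the animal.

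The table gives 1 value per gene and group, the authors' mean in RPKM (reads scaled to gene length and library size), so the spread between libraries is unknown and no difference below has a replicate check or a p-value. Differences are on the scale log2((mutant + 1) / (control + 1)). The added 1 RPKM understates changes of low genes, and a gene is called 2-fold apart by its size on that scale. The targeted gene, Mettl3, had a control mean of 49.8 RPKM and a mutant mean of 9.60 RPKM, which is 19.3% of the former. All 6 HSC markers examined had reads, from 9.88 RPKM for Mecom to 152 RPKM for Ly6a in controls, and their summed level was 328 RPKM for controls and 302 RPKM for mutants. Kit, at 67.4 and 39.9 RPKM, and Hlf, at 19.3 and 11.9 RPKM, had mutant means of 59.2% and 61.8% of the control mean, and Ly6a, at 152 and 167 RPKM, was higher. Markers of neutrophils, lymphocytes and erythroid cells were lower than these: the summed level of 5 neutrophil genes was 14.6 and 5.82 RPKM, of 4 T cell genes 0.515 and 0.168 RPKM, of 4 B cell genes 0.0869 and 0.0797 RPKM and of 3 erythroid genes 4.68 and 7.28 RPKM. Of 5 macrophage genes, Csf1r and Emr1 (Adgre1 in RefSeq) had no reads, C1qa was at 0.212 and 1.38 RPKM, C1qb at 1.87 and 0.904 RPKM, and Lyz2, also expressed by other myeloid cells, was at 406 and 289 RPKM. The part of these differences in the results below was not tested, and fewer cells of a type and less RNA per cell cannot be told apart in such samples.

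In initiation, eIF1 and eIF1A scan for the start codon, eIF2 delivers the initiator tRNA, eIF2B recharges eIF2 with GTP, and eIF3 holds the small subunit. The eIF4F complex, made of the cap-binding protein eIF4E, the scaffold eIF4G and the helicase eIF4A, recruits the mRNA, and the eIF4E-binding proteins block that step when mTOR is inactive. HSCs are known for a low rate of protein synthesis compared with their progeny, and 4E-binding proteins are known to take part in keeping it low.

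As a group, the translation factor genes differed little between the group means. Of the 62, 60 had reads, and Eef1a2, the elongation factor isoform of muscle and neurons, and Eif4e1b, a cap-binding homologue of oocytes, did not. In the mutant mean 30 of the 60 were higher and 30 lower (52.6% of all genes with reads were higher), with a median log2 difference of 0.00, beside 0.02 over all 14539 genes with reads. Members 2-fold apart numbered 2, Eif4ebp2 (higher) and Eif4ebp3 (lower), whereas 7.14% of all genes with reads were, 3.67% higher and 3.47% lower. At 1.5-fold the members apart numbered 4, beside 23.4% of all genes with reads. Their summed level was 9322 RPKM for controls and 9207 RPKM for mutants, 1.85% and 1.84% of the column sums.

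The share of members with small differences was higher also above a minimum level, though the levels were not matched. Among the 52 members with at least 10 RPKM in a group, 45 (86.5%) differed by less than 1.25-fold, beside 54.6% of the 6607 genes past that minimum. The median control level was 105 RPKM in those members and 32.4 RPKM in those genes. Of these 52, 1 was 2-fold apart, beside 5.83% of the 6607. The median size of the log2 difference was 0.16 in the members and 0.29 in all genes past that minimum. At 100 RPKM or more, 25 of 28 members (89.3%) and 66.1% of 1426 genes differed by less than 1.25-fold, and 10 of the 28 members were higher, beside 45.2% of the 1426 genes.

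**Figure D1:**
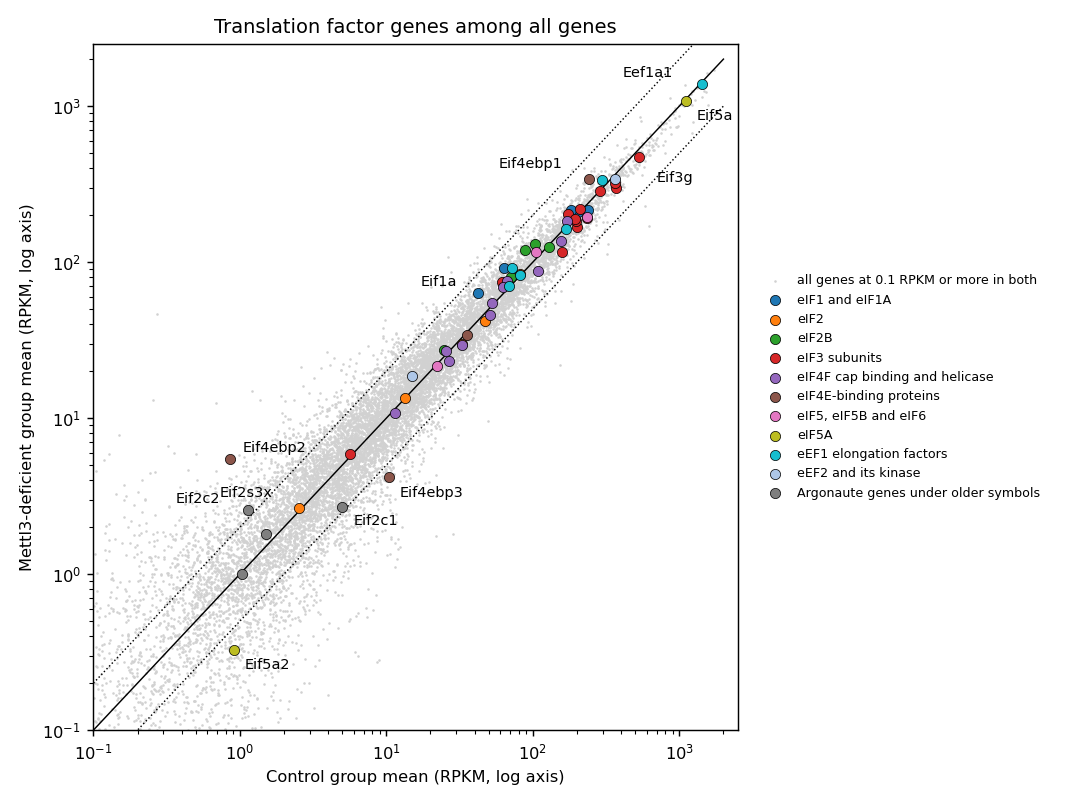
Group means in RPKM of controls (horizontal log axis) and Mettl3-deficient HSCs (vertical log axis), 1 point per gene. Translation factor genes are coloured by role, all other genes with at least 0.1 RPKM in both groups are grey, the solid line marks equality and the dotted lines a ratio of 2. Members above 10 RPKM lie close to the line of equality, except Eif4ebp3 (10.4 and 4.17 RPKM).

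**Figure D2:**
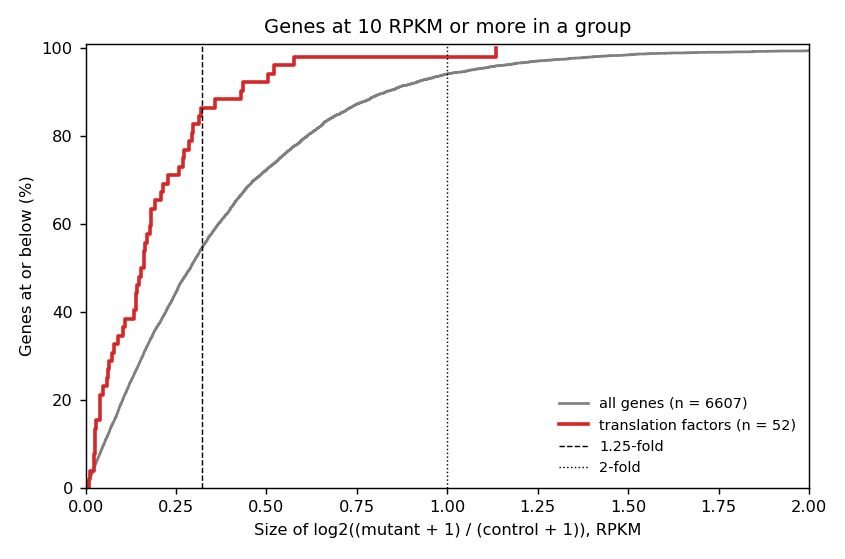
Cumulative share of genes (vertical axis, percent) by the size of the log2 difference between group means (horizontal axis), for genes with at least 10 RPKM in a group. At the dashed line, 1.25-fold, the curve of the 52 translation factors is at 86.5% and that of all 6607 genes at 54.6%.

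Many mRNAs of the translation machinery begin with a 5′ terminal oligopyrimidine tract, a run of C and T at the cap that puts their translation under mTOR control. RefSeq's starts on GRCm38.p6 were held for 48 of the 62 members, and the window from 10 bases before to 20 bases from the start was searched on the sense strand for its longest pyrimidine run. A run of at least 7 bases anywhere in the window was found in 12 members (25%), beside 20.5% of 27025 genes. Those 27025 are all genes with such starts held, with or without reads here, so they are not matched to the members in expression. A run of at least 10 bases lay across the start in 5 members (10.4%), beside 2.79% of those genes. Those 5 are shown because their run crosses the annotated start, which is a looser rule than a tract that begins at the cap. Capitals mark the run, and the start is the 11th base. The windows are chrX:94212632-94212661 (minus strand), chr7:108934405-108934434 (plus strand), chr16:20498807-20498836 (plus strand), chr9:78481705-78481734 (minus strand) and chr15:79075213-79075242 (plus strand), in this order.
Eif2s3x: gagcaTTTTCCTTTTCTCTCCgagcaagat
Eif3f: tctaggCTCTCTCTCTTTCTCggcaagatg
Eif2b5: CTCTTTCTCTCCCTgcaactacaccttcgc
Eef1a1: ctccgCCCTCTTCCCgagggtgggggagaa
Eif3l: gagTTCTTCTTCCgctctctcccacgggct
The 5 genes ranged from 2.53 RPKM (Eif2s3x) to 1423 RPKM (Eef1a1) in controls, and their log2 differences from -0.05 (Eef1a1) to 0.32 (Eif2b5). A stricter form, a C at the start followed by at least 4 pyrimidines, was found in 2 members (4.17%), Eif2s3x and Eif3f, and in 3.01% of all genes. These are matches of letters at annotated starts, which can lie some bases from the true cap site.

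The eIF4E-binding proteins held both members that were 2-fold apart, in opposite directions. Eif4ebp1, the most abundant of them, had a mean of 241 RPKM in the control column and 342 RPKM in the mutant column, 1.42-fold higher. Eif4ebp2, a paralogue with the same function (NCBI Gene 13688), lies on chromosome 10 from 61428491 to 61452790 in GRCm38.p6. Its means were 0.856 RPKM without and 5.43 RPKM with the mutation, 6.35-fold higher by the ratio of means and a log2 difference of 1.79. It stayed far below Eif4ebp1 in either group. If the authors' gene model has the length of the GENCODE transcript, 1422 bases, these means amount to about 28 reads per control library and 221 reads per mutant library. Whether 1 library or several carried the mutant value cannot be read from a mean.

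Eif4ebp3, the third paralogue (chromosome 18, 36664060 to 36666324), was 2.48-fold lower, with means of 10.4 RPKM for controls and 4.17 RPKM for mutants. Its log2 difference of -1.13 is the lowest among the members. The gene lies just downstream of Ankhd1 on the same strand, and GENCODE annotates a gene that joins them: 62.8% of the 100-base stretches of the Eif4ebp3 transcript are also in that joined transcript, and 71.4% of the stretches of the joined transcript are in Ankhd1. Ankhd1, which encodes an ankyrin-repeat protein, was 2.23-fold lower as well, at 16.1 and 7.19 RPKM. Reads of Eif4ebp3 and of a transcript read through from Ankhd1 cannot be told apart here, and the part of Ankhd1 in the Eif4ebp3 value was not tested. Eif4enif1, the eIF4E transporter that carries eIF4E into the nucleus and into processing bodies, was at 35.5 and 33.9 RPKM.

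Summed over the 3 binding protein genes, the level was 252 RPKM for controls and 351 RPKM for mutants, nearly all of it Eif4ebp1. Eif4e itself, the cap-binding protein they hold, was at 66.4 and 75.3 RPKM. The ratio of Eif4ebp1 to Eif4e, both per kilobase, was 3.62 in controls and 4.54 in mutants.

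The cap-binding and helicase genes spanned a narrower range of differences than the binding protein genes. Of the 11 with reads, Eif4e included, 5 were higher and 6 lower, with a median of -0.08 and a range from -0.30 to 0.18. Among the helicase genes, Eif4a1 was at 53.0 and 54.5 RPKM, and its paralogue Eif4a2 at 109 and 88.3 RPKM, the lowest difference of the set. Eif4a3, the helicase of the exon junction complex rather than of eIF4F, was at 171 and 184 RPKM. The helicase cofactors Eif4b (51.4 and 46.0 RPKM) and Eif4h (156 and 136 RPKM) were lower. Of the scaffolds, Eif4g1 was at 25.4 and 26.8 RPKM, Eif4g3 at 11.4 and 10.8 RPKM, and Eif4g2, a homologue that lacks the eIF4E-binding part, at 62.8 and 69.1 RPKM. The cap-binding homologues Eif4e2, known as a repressor that does not join eIF4G, and Eif4e3 had means of 33.0 and 29.2 RPKM and of 26.8 and 23.1 RPKM.

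**Figure D3:**
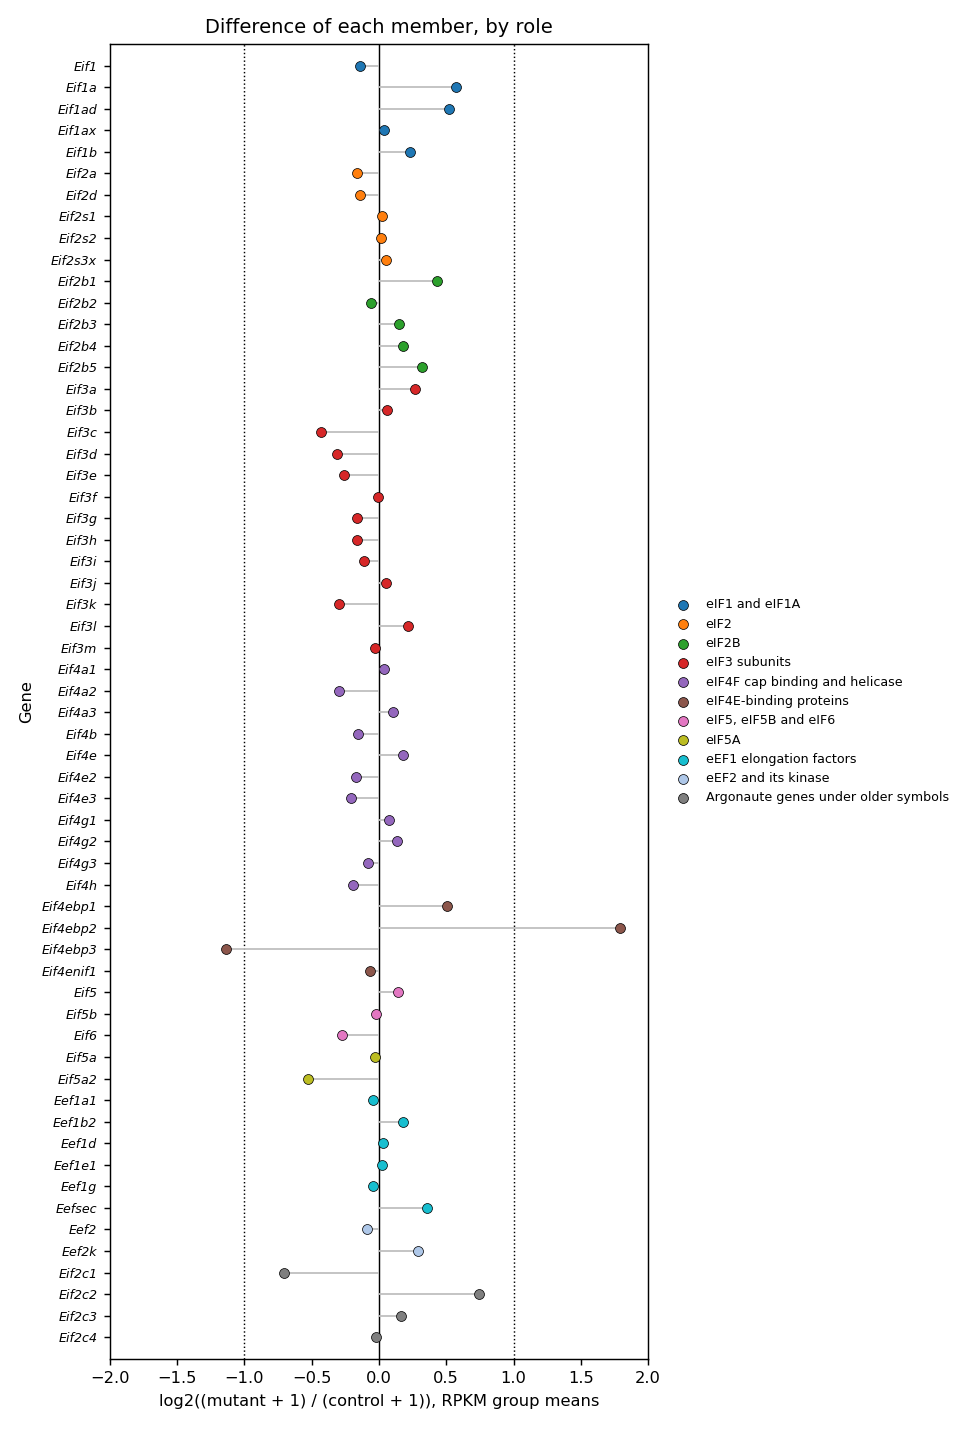
Log2 difference between group means (horizontal axis, log2((mutant + 1) / (control + 1)) of RPKM) of the 60 members with reads, 1 point per gene, grouped and coloured by role. Dotted lines mark 2-fold. Eif4ebp2 (1.79) and Eif4ebp3 (-1.13) lie beyond them, and all other members between -0.71 and 0.74.

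Genes of eIF3, the largest initiation factor, were mostly lower in the mutant mean. Of 13 subunit genes, 9 were lower and 4 higher, none 2-fold apart, with a median of -0.11. Most of them lay above 100 RPKM. At 100 RPKM or more in a group, 18 of the 28 members were lower, and 45.2% of all 1426 genes were higher. Those 28 include the eIF3 genes above that minimum, so their count is no separate comparison for eIF3. Whether the direction is particular to eIF3 was not tested. Scaling the columns to equal sums left 8 lower and 5 higher, since Eif3f, at 289 and 287 RPKM, then turned sign. Eif3c, a core subunit, was at 158 and 117 RPKM, the lowest of the set at -0.43. Next were Eif3d, a subunit able to bind the cap of some mRNAs, at 370 and 297 RPKM, Eif3k at 234 and 191 RPKM and Eif3e at 199.99 and 167 RPKM. Eif3g (527 and 471 RPKM), Eif3h (361 and 323 RPKM), Eif3i (198 and 183 RPKM) and Eif3m (193 and 190 RPKM) were lower by smaller amounts. The higher subunits were Eif3a, the scaffold of the complex, at 61.7 and 74.5 RPKM, Eif3l at 175 and 203 RPKM, Eif3b at 210 and 219 RPKM, and Eif3j at 5.69 and 5.92 RPKM. The levels of the subunits were far from equal within a group: Eif3g was 8.54 times as high as Eif3a in controls and 6.32 times in mutants.

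Most genes named for eIF1, eIF1A and eIF2B were higher instead, as were 52.6% of all genes with reads. Of the 5 genes named for eIF1 and eIF1A, 4 were higher, with a median of 0.23. Those 4 include Eif1ad, which is no core factor, and Eif1ax, which lay near 0 at 0.04. Eif1a, an autosomal eIF1A gene on chromosome 18, averaged 42.2 RPKM for controls and 63.4 RPKM for mutants, a log2 difference of 0.58, the highest among members with at least 10 RPKM. Its X-linked paralogue Eif1ax was at 204 and 210 RPKM, and the 2 genes share no stretch of 100 bases in their transcripts. Eif1ad, whose product has an eIF1A-like domain but is no core initiation factor, was at 63.8 and 92.0 RPKM. It shares 13.4% of its 100-base stretches with the overlapping gene Banf1, which was at 398 and 436 RPKM. Eif1b was at 183 and 215 RPKM, and Eif1, which guards start codon choice, was lower, at 237 and 215 RPKM.

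Of the 5 subunits of eIF2B, the exchange factor that is inhibited when eIF2 is phosphorylated, 4 were higher, with a median of 0.18. Eif2b1 was at 88.1 and 119 RPKM and Eif2b5, the catalytic subunit, at 104 and 130 RPKM. Eif2b4 was at 71.0 and 80.6 RPKM and Eif2b3 at 24.6 and 27.4 RPKM. Eif2b2, the lower subunit, was at 129 and 124 RPKM.

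The 3 subunit genes of eIF2 lay near 0, with log2 differences from 0.01 to 0.05, and Eif2s2 turned sign after scaling by the median ratio over genes. Eif2s1, the alpha subunit that is phosphorylated under stress, was at 82.2 and 83.7 RPKM, and Eif2s2, the beta subunit, at 13.3 and 13.5 RPKM. Eif2s3x, the X-linked gamma subunit, was at 2.53 and 2.66 RPKM, so that Eif2s1 was 32.5 and 31.5 times as high. The Y-linked homologue Eif2s3y, outside the set, was at 22.5 and 12.3 RPKM, and the 2 homologues together came to 25.002 and 14.9 RPKM. The labels do not state the sex of the animals, and other Y-linked genes were not examined here. The part of sex makeup in the difference of that sum was not tested. Eif2a (47.1 and 41.9 RPKM) and Eif2d (33.1 and 29.9 RPKM), factors able to deliver tRNA without eIF2, were lower.

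Factors of subunit joining and of elongation included the most abundant members. Eef1a1, which carries aminoacyl-tRNA to the ribosome, averaged 1423 RPKM for controls and 1377 RPKM for mutants, the 7th highest of all genes in controls. Eif5a, the hypusine-bearing factor that helps ribosomes through difficult peptide bonds, was at 1106 and 1083 RPKM, the 19th highest. Its paralogue Eif5a2 was low, at 0.907 and 0.324 RPKM. Eef2, the translocase, was at 362 and 341 RPKM, and Eef2k, the kinase that inhibits it, at 15.02 and 18.5 RPKM. Among the exchange factors of eEF1, Eef1b2 was at 297 and 337 RPKM, Eef1d at 81.5 and 83.1 RPKM and Eef1g at 167 and 163 RPKM. Eefsec, the elongation factor that inserts selenocysteine, had the highest log2 difference of the eEF1 group, 0.36, at 71.6 and 92.0 RPKM, and Eef1e1, a scaffold protein of the tRNA synthetase complex, was at 68.7 and 69.8 RPKM. Of the 6 genes listed with eEF1 that had reads, 4 were higher, or 3 after scaling by the median ratio over genes, which turned Eef1e1. Eefsec and Eef1e1, which are no eEF1 subunits, are among those 4. Of the others, Eef1b2 and Eef1d were higher and Eef1a1 and Eef1g lower. Of the joining factors, Eif5 was at 105 and 116 RPKM, Eif5b at 22.0 and 21.6 RPKM, and Eif6, which keeps the large subunit apart until it is mature, at 234 and 193 RPKM.

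The name rule also takes 4 Argonaute genes, listed under the older symbols Eif2c1 to Eif2c4, whose products bind small RNAs and are no translation factors. Eif2c1 (Ago1 in RefSeq) averaged 5.01 RPKM for controls and 2.68 RPKM for mutants, and Eif2c2 (Ago2) at 1.13 and 2.56 RPKM. Eif2c3 (1.496 and 1.80 RPKM) and Eif2c4 (1.03 and 1.006 RPKM) were low in both groups. Leaving the 4 out gave 28 higher and 28 lower members and the same median of 0.00.

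Several translation factor genes share sequence with other genes, such as Eif4a1 with Eif4a-ps4 and Eif3j with Eif3j2. Whether reads with several matches were counted is not stated. Each member's GENCODE transcript was cut into stretches of 100 bases, the read length, and the share also found in a gene elsewhere in the genome was counted. For 38 of the 60 members with reads the share was 0, and for 5 it was at least 25%: Eif4a1 (60.8%), Eef1g (49.4%), Eif3j (40.3%), Eif2s3x (35.3%) and Eef1a1 (26.1%). Eif3j and Eif2s3x were also the lowest of the eIF3 and eIF2 genes, whereas Eef1a1 was the highest of all members, so that a large share was found at both ends of the range. The RPKM of these 5 genes are uncertain as levels, and their log2 differences lay between -0.05 and 0.05.

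**Figure D4:**
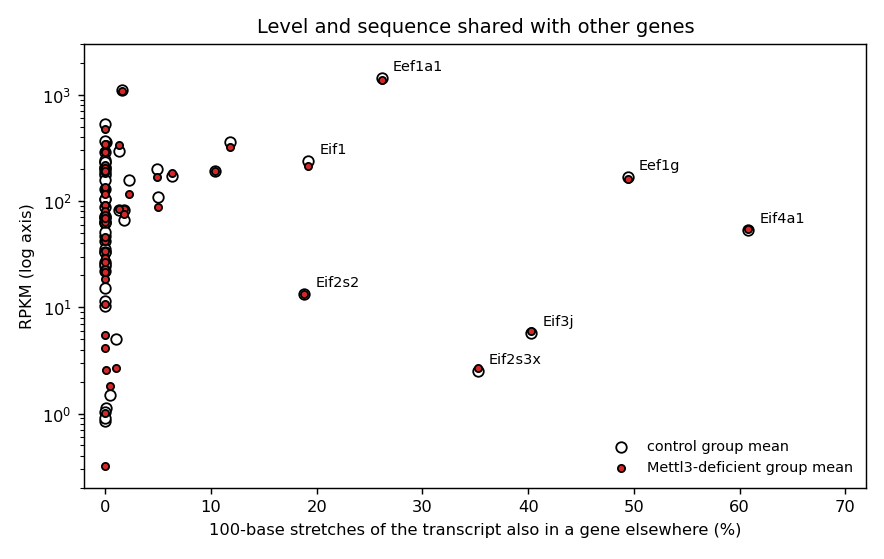
Group mean in RPKM (vertical log axis) against the share of 100-base stretches of the transcript that also occur in a gene elsewhere (horizontal axis, percent), for the 60 members with reads. Open circles are control means and red circles mutant means. Eif4a1 (60.8%), Eef1g (49.4%), Eif3j (40.3%), Eif2s3x (35.3%) and Eef1a1 (26.1%) lie to the right of the others.

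The sequence GGACT, the commonest form of the site methylated by the Mettl3 complex, was counted on the sense strand of 1 GENCODE transcript per gene. The members with reads held a median of 1.11 sites per kilobase, and all 13448 genes with reads and a coding transcript 1.06. The numbers ran from none in 6 members, among them Eef1a1, Eif3g, Eif3k and Eif4ebp3, to 15 in Eif2c2. Eif4ebp2 held 2 sites and Eif4ebp1 also 2. A match does not show that the site is methylated in these cells.

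Other genes of translation and its control, mitochondrial translation factors included, were described from 7 lists. Of their 65 genes with reads, 38 had a higher and 27 a lower mutant mean, with a median of 0.10, and 1 was 2-fold apart. Over all genes with reads, 52.6% were higher and 7.14% were 2-fold apart. That gene was Ppp1r15a (GADD34), a stress-induced subunit of the phosphatase that restores eIF2. It was 2.12-fold lower, from 280 RPKM for controls to 132 RPKM for mutants, and its constitutive counterpart Ppp1r15b was at 5.64 and 3.49 RPKM. Of the 4 eIF2 kinases, Eif2ak1, the haem-regulated kinase, was at 28.9 and 49.2 RPKM and Eif2ak2 (PKR), which is activated by double-stranded RNA, at 15.6 and 24.0 RPKM. Eif2ak3 (PERK), which senses misfolded protein in the endoplasmic reticulum, was at 0.940 and 1.76 RPKM, whereas Eif2ak4 (GCN2), which senses uncharged tRNA, was at 13.0 and 7.504 RPKM. So 3 kinase genes were higher, 1 was lower, and both phosphatase subunit genes were lower in the mutant mean.

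**Figure D5:**
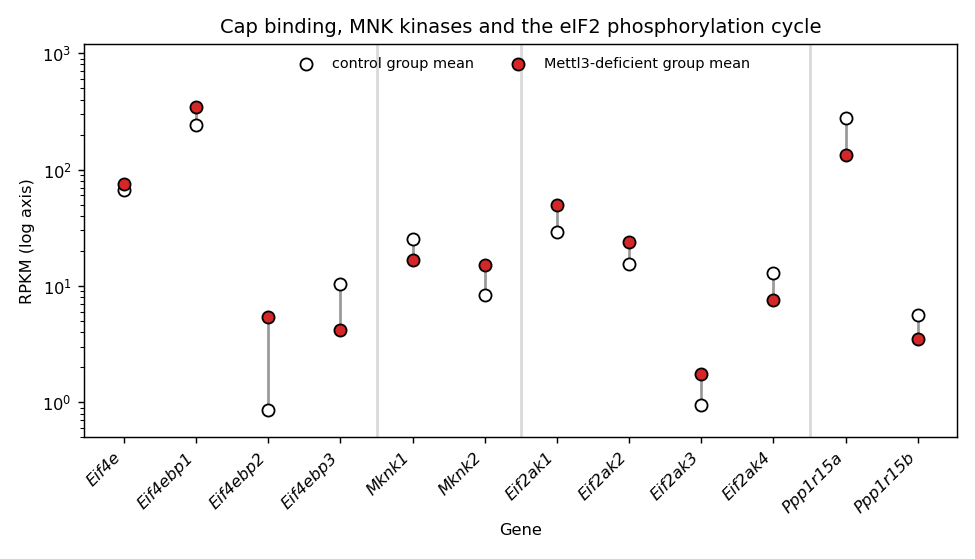
Group means in RPKM (vertical log axis) of Eif4e, its binding proteins, the MNK kinases that phosphorylate eIF4E, the eIF2 kinases and the eIF2 phosphatase subunits. Open circles are controls, red circles Mettl3-deficient HSCs, and a line joins the 2 means of a gene. Eif4ebp2 (0.856 and 5.43 RPKM) has the longest line, and Ppp1r15a (280 and 132 RPKM) is lower in mutants.

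The mTOR list, 15 genes with 9 higher and 6 lower, had a median of 0.04. Mtor, its kinase, was at 5.47 and 3.69 RPKM, and the genes farthest apart among those with at least 5 RPKM were the MNK kinase genes Mknk2 (8.31 and 15.1 RPKM) and Mknk1 (25.1 and 16.7 RPKM). Larp1, which binds the cap of mRNAs that begin with a pyrimidine tract, was at 2.28 and 4.69 RPKM. Its log2 difference of 0.79 was the highest of the list, and its binding to the members' mRNAs was not measured here. Larp1 is named after its values were seen, as are Mtor, Ppp1r15b and Eif2ak2 to Eif2ak4. Poly(A)-binding proteins and partners were 3 higher and 3 lower, with Pabpc1, the main cytoplasmic poly(A)-binding protein, at 172 and 128 RPKM and its partner Paip1 at 16.9 and 23.0 RPKM. Of the 11 accessory factors 6 were higher, with the cap-binding protein gene of the nucleus, Ncbp1, at 26.0 and 42.3 RPKM and the helicase gene Dhx29 at 8.35 and 5.58 RPKM. Termination and ribosome rescue differed least, from -0.26 for Ltn1 (9.23 and 7.55 RPKM), a ligase of stalled chains, to 0.33, with Pelo, which splits stalled ribosomes, at 5.35 and 6.73 RPKM.

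Of 7 genes that make hypusine on eIF5A or diphthamide on eEF2, 6 were higher, or 5 after scaling by the median ratio over genes. Dohh, the enzyme of the last step of hypusine, was at 23.9 and 39.7 RPKM and Dph3 at 11.9 and 20.8 RPKM, whereas their substrates' genes Eif5a and Eef2 differed by log2 -0.03 and -0.09. Of 10 mitochondrial translation factors 7 were higher, with a median of 0.26, among them Guf1 (21.2 and 33.5 RPKM) and the release factor Mtrf1 (14.6 and 23.1 RPKM).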

How the data were processed

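The deposited file lists RPKM as 1 mean for each group, as its header names only control and mutant, and the authors' way of averaging, aligner and annotation are not stated. The submitters' processing notes name mm10, Picard and edgeR, without roles. With 1 value per group no test was planned or run. A gene was taken as without reads when its mutant/control ratio was the commonest one, 0.841 (8499 genes, relative tolerance 1e-06 or, if wider, the rounding of the table), which marks an offset. That offset, 0.0414 RPKM in controls and 0.0349 RPKM in mutants at 1 kb, was read as 1 read in each library, and estimated read numbers rest on this reading. Library depth is otherwise unknown. The recognition of genes without reads was tested on simulated data. Symbols, coordinates and starts come from RefSeq (GRCm38.p6, the same assembly as mm10), and transcripts from GENCODE M21, taking the longest coding transcript per gene, RefSeq-linked where there was one. Python 3.11.15 and pandas 2.3.3 were used. Named genes are Mettl3, members with at least 10 RPKM in a group or 2-fold apart, and the 2 genes farthest apart of each related list among those with at least 5 RPKM. Members below 10 RPKM that are named (Eif2s3x, Eif3j, Eif5a2, the Argonaute genes) were chosen after their values were seen. The members, roles and lists were chosen with earlier results of these data known. Alternatives tried were the pseudocount, the scaling of the columns, a minimum level and another fold. The 6 listed genes for enzymes that methylate elongation factors were not found by symbol and were not analysed here. A further HSC marker of the planned list is not reported here.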

Additional observations from a re-analysis of the deposited data

How the results depend on the processing

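With a pseudocount of 0.1 RPKM, 4 members were 2-fold apart in place of 2 (Eif2c2 and Eif5a2 in addition), and 4 without a pseudocount. Over all genes the numbers were 2855 and 3655 in place of 1038. Genes without reads in 1 group only were kept in the count without a pseudocount. Eif4ebp2 moved from 1.79 to 2.53 and 2.67, because the pseudocount weighs on low genes. With a minimum of 10 RPKM in a group, 1 member (Eif4ebp3) and 385 genes of all were 2-fold apart, as fewer genes were counted, and the median of the members was -0.016. At a fold of 1.5, 4 members were apart (Eif2c1 and Eif2c2 in addition). Dividing the mutant column by the median ratio turned the median to -0.021. Of 68 named genes, 3 changed sign under a scaling (Eif3f, Eef1e1 and Eif2s2), all within 0.03 of 0. No paired analysis was possible because each group is deposited as its mean. Leaving out replicates was not run for the same reason. At 1 value per group, no depth of sequencing shows whether a difference exceeds the spread between animals.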
